A study of Mus musculus with 8 samples.

Results

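Suz12delta cells are embryonic stem cells (ESCs) on a C57/BL6 background that carry a truncation of SUZ12, a core subunit of Polycomb repressive complex 2 (PRC2). Gene expression was compared between 2 RNA-seq libraries of this line, ESCs at day 0 and cells at day 5 of a directed differentiation toward spinal motor neurons (SMNs). Day 0 cells were grown with LIF in serum on irradiated mouse embryonic fibroblasts (MEFs), which were removed by brief plating before collection. Day 5 cells had been taken out of LIF and exposed to retinoic acid and a Hedgehog agonist, and were collected before the terminal stage. The comparison covered every gene of the deposited table with at least 1 FPKM (fragments per kilobase of transcript, scaled to the mapped fragments of the library) in either library and a value above 0 in both, which gave 16101 of 36808 genes. The same days were compared in E14 wild-type cells (129/Ola background) and in Eednull cells, which carry a point mutation in *Eed* on a BALB/cR1 background. Strain background and mutation cannot be told apart between these lines, each line is a single ESC line, and each condition has 1 library, so no difference has a replicate check and no p-value is given. Whether the Eednull day 0 and day 5 libraries were prepared together is not known, and a batch and the day cannot be told apart in that line.

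PRC2 places trimethyl groups on lysine 27 of histone H3 (H3K27me3), a mark found at the silent promoters of many developmental regulators in ESCs. In the embryo, retinoic acid from the somites and Sonic hedgehog from the floor plate and notochord instruct neural tube cells to form the motor neuron progenitor domain, marked by OLIG2, and then motor neurons, marked by ISL1, LHX3 and MNX1. Retinoic acid acts through nuclear receptors that bind paired direct repeats in DNA, and Hedgehog acts through the GLI transcription factors.

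The promoters of 3 genes that changed in this comparison are shown because they hold motifs of the factors through which retinoic acid and the pluripotency network act. The windows are the 250 bases before an annotated transcript start (GENCODE vM1, NCBI build 37), written on the strand of the gene, and capitals mark the motif. *Rarb*, a retinoic acid receptor gene, lies on chromosome 14 on the minus strand, and its window is chr14:17407987-17408236. *Cyp26a1*, which encodes an enzyme that breaks down retinoic acid, lies on chromosome 19 on the plus strand, and its window is chr19:37772048-37772297. *Nanog*, a core pluripotency factor gene, lies on chromosome 6 on the plus strand, and its window is chr6:122657257-122657506.
Rarb: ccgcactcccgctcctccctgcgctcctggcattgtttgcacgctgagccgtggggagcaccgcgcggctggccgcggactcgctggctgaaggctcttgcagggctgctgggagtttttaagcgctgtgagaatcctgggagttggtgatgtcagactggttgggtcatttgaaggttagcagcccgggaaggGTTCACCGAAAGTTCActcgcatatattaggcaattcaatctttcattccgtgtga
Cyp26a1: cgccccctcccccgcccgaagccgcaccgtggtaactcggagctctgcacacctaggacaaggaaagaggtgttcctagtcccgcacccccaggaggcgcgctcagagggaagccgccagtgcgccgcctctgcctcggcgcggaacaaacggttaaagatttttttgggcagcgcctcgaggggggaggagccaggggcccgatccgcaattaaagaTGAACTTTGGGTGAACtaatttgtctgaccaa
Nanog: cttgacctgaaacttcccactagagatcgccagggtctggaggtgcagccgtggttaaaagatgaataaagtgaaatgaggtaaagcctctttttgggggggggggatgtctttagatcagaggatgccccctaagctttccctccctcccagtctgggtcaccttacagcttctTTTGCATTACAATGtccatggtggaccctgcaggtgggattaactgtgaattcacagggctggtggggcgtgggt
The retinoic acid motif searched was a direct repeat spaced by 5 bases, spelled GTTCA or GGTCA, then any 6 bases, then GTTCA or GGTCA, on either strand. The GLI motif was GACCACCCA and the OCT4-SOX2 composite motif was the SOX element CATTGT, any 1 base and the OCT element ATGCAAA, also on either strand, and 0 windows held more than one of these motifs. The repeat starts 56 bases before the *Rarb* start and 32 bases before the *Cyp26a1* start, and the composite motif starts 75 bases before the *Nanog* start. A match describes the letters in the window and does not show that a factor bound there.

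*Rarb* went from 0.758 FPKM at day 0 to 19.5 FPKM at day 5. *Cyp26a1* went from 0.315 to 27.7 FPKM. *Nanog* went from 88.0 to 0.940 FPKM. These genes were picked because they changed and hold a motif, so their directions carry no weight for the motifs. Over 300-base windows at all annotated starts, the retinoic acid repeat was in 0.352% of genes, in 0.455% of the compared genes and in 9 of the 1014 genes with a window that rose at least 4-fold (0.888%). These 9 were *Csn3*, *Rarb*, *Cyp26a1*, *Zfp711*, *Spint1*, *Tead2*, *Mest*, *Hbb-y* and *Zfp329*. Among genes that fell at least 4-fold, 5 of 631 held the repeat (0.792%), a share close to that of the genes that rose. They were *Fam198b*, *Ppbp*, *Prl2c5*, *Sphk1* and *2410141K09Rik*. The GLI motif was in 0.648% of the compared genes, in 8 of the genes that rose at least 4-fold (0.789%) and in 1 of those that fell (0.158%). The composite motif was in the window of 1 gene of the table, *Nanog*.

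The libraries were checked first on the mutated gene and on markers. *Suz12*, on chromosome 11 of NCBI build 37 from 79806608 to 79847625, was at 6.21 FPKM at day 0 and 11.6 FPKM at day 5 in Suz12delta cells, against 41.3 and 16.2 FPKM in E14 cells. A value over the whole gene does not show the truncation. The FPKM values of the table summed to 389165 at day 0 and 460746 at day 5, and the 10 highest genes took 7.69% and 11.1% of these sums. In the other 6 libraries the sums were between 403007 and 797748. The number of reads is unknown. Summed over 5 ESC marker genes (*Pou5f1*, *Nanog*, *Zfp42*, *Esrrb* and *Dppa5a*), the level was 337 FPKM at day 0 and 11.4 FPKM at day 5, so the day 0 library carried the ESC markers its label gives. Summed over 5 fibroblast markers (*Col1a1*, *Col1a2*, *Col3a1*, *Postn* and *Thy1*), it was 473 FPKM at day 0 and 95.1 FPKM at day 5, against 77.0 and 1.52 FPKM in E14 cells and 239 and 44.2 FPKM in Eednull cells. None of these 5 genes was listed at 0 in either Suz12delta library. Fibroblast markers were thus lower at day 5, as were the genes whose falls are described below, and the part of fibroblast RNA in those falls was not tested. In these bulk libraries, fewer cells of a type and less RNA per cell cannot be told apart.

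More genes were higher at day 5 than lower. To form a ratio, 0.1 was added to each FPKM value and log2 of the quotient of day 5 to day 0 was taken. A gene is said to have risen or fallen when it passed 2-fold on that scale. In all, 4112 genes rose (25.5% of the 16101) and 1462 fell (9.08%), and 1015 rose at least 4-fold (6.30%) and 637 fell as far (3.96%). Across all of them the log2 ratio had a median of 0.46 and quartiles of -0.12 and 1.02, so its centre lay above 0. Of the genes past 2-fold, 73.8% were higher at day 5, but 53.3% were when both libraries were scaled to the same 75th percentile, which lowered every ratio by 0.38, and 47.0% were after centring on the median. With a pseudocount of 1, 330 genes rose and 315 fell at least 4-fold. The excess of rises rests on the scaling, and list medians below are read beside 0.46. The member closest to the minimum had a higher value of 1.00019 FPKM, and the nearest gene left out had 0.999924 FPKM.

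**Figure D1:**
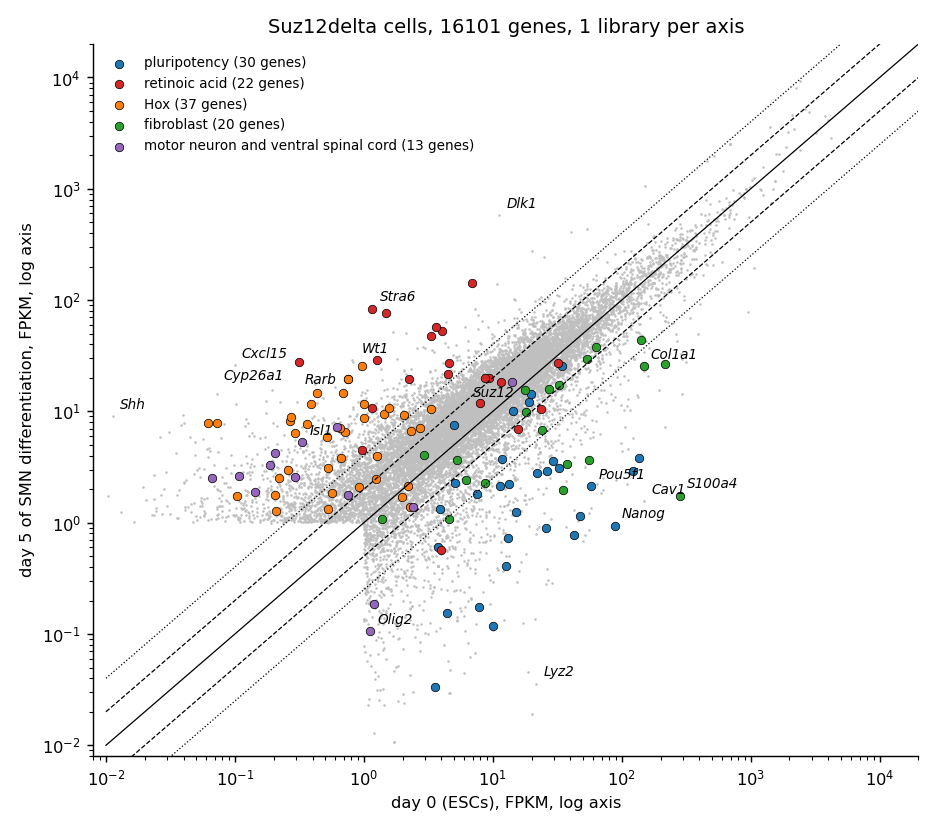
FPKM at day 0 (x axis) against day 5 (y axis) on log axes for the 16101 genes compared in Suz12delta cells, 1 library per axis, with equality (solid), 2-fold (dashed) and 4-fold (dotted) lines and 5 gene lists in colour. Retinoic acid and Hox genes lie mostly above the 2-fold line, and pluripotency and fibroblast genes lie mostly below equality.

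Most genes that rose at least 4-fold were under 1 FPKM in the ESCs, and the minimum admits such a gene only through its day 5 value. Genes that rose at least 4-fold had a median of 0.551 FPKM at day 0 and 4.62 FPKM at day 5, and 661 of them (65.1%) were under 1 FPKM at day 0. Genes that fell at least 4-fold had medians of 7.09 and 0.739 FPKM, and 362 of them (56.8%) were under 1 FPKM at day 5. Few genes crossed from clearly off to clearly on. Crossings were counted in each line among genes above 0 on both of its days, so genes listed at 0 were left out. In Suz12delta cells 31 went from under 1 to at least 10 FPKM, against 117 in E14 and 26 in Eednull cells. In the other direction, from at least 10 to under 1 FPKM, there were 44 in Suz12delta, 194 in E14 and 66 in Eednull cells. CpG-rich promoters, with GC above 50% and an observed to expected CpG ratio above 0.6 over the window at the 5′ end of the gene, made up 61.8% of the 13270 protein-coding genes compared. They made up 50.5% of those that rose at least 4-fold and 22.9% of those that fell at least 4-fold.

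Retinoic acid signalling genes rose strongly. Of 22 genes compared, 16 rose and 3 fell, against 25.5% and 9.08% of all genes, and the median log2 ratio was 2.81. The receptor genes *Rara* and *Rxrb* rose from 8.66 to 20.2 FPKM and from 9.43 to 19.8 FPKM (with centring these 2 were within 2-fold), while *Rarg*, an alternative receptor gene, fell from 15.6 to 6.92 FPKM. *Stra6*, which encodes the membrane receptor that imports retinol, rose from 1.17 to 83.7 FPKM, a log2 ratio of 6.05. *Dhrs3*, a retinaldehyde reductase gene that limits retinoic acid formation, rose from 6.87 to 141 FPKM. *Cyp26b1*, another gene for an enzyme that breaks the ligand down, rose from 1.48 to 76.3 FPKM. Synthesis genes rose with these feedback genes. *Aldh1a2*, the main retinaldehyde dehydrogenase of the embryo, went from 1.27 to 29.1 FPKM, and *Rdh10*, which makes retinaldehyde, went from 2.22 to 19.5 FPKM. The target genes *Meis1* and *Meis2*, HOX cofactors, reached 48.0 and 53 FPKM from 3.32 and 4.07 FPKM.

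Several retinoic acid genes differed from wild-type cells in level or direction. *Aldh1a2* was at 0.983 FPKM at day 0 and 0.935 FPKM at day 5 in E14 cells but rose in Eednull cells from 1.26 to 34.3 FPKM. *Stra8*, a retinoic acid target best known from meiotic germ cells, rose from 3.63 to 56.8 FPKM in Suz12delta cells and fell from 6.86 to 2.17 FPKM in E14 cells. The carrier gene *Crabp1* fell from 23.5 to 10.6 FPKM while it rose in E14 cells from 13.4 to 81.0 FPKM. *Cdx1* fell from 3.96 to 0.568 FPKM. For *Rarb* the day 5 levels were 19.5 FPKM in Suz12delta, 22.7 FPKM in E14 and 26.2 FPKM in Eednull cells. Over the list, 12 genes rose in E14 cells (median 1.41) and 15 in Eednull cells (median 2.18). In all list counts and medians of these lines, a value listed at 0 was taken as 0 plus the pseudocount.

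Hedgehog pathway genes were higher at day 5 as a group. Of 12 genes compared, 10 rose and 0 fell, with a median log2 ratio of 2.28, and 7 still rose after centring. Among direct GLI targets, the receptor gene *Ptch1* rose from 7.64 to 72.8 FPKM and the activator gene *Gli1* rose from 1.43 to 15.7 FPKM. *Hhip*, which encodes a protein that binds and restrains the ligand, rose from 0.440 to 8.41 FPKM. Ligand genes rose from very low levels, *Shh* from 0.0114 to 9.06 FPKM and *Ihh* from 0.162 to 2.69 FPKM. *Smo*, the signal transducer, rose from 7.10 to 25.5 FPKM, *Gas1*, a coreceptor gene, rose from 2.03 to 13.9 FPKM, and the coreceptor gene *Boc* was at 3.05 and 3.44 FPKM. Day 5 levels of *Ptch1* were close between lines (68.9 FPKM in E14 and 64.9 FPKM in Eednull cells), but E14 cells began at 36.9 FPKM. *Gli1* likewise began at 11.3 FPKM in E14 cells and was at 10.6 FPKM at day 5. In E14 cells 4 of the 12 rose, and in Eednull cells 10 did.

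Pluripotency genes fell. Of 30 genes, 25 fell and 0 rose, with a median log2 ratio of -3.25. *Pou5f1*, which encodes OCT4, fell from 58.1 to 2.12 FPKM, and *Nanog* had the largest fall of the list, with a log2 ratio of -6.40. *Prdm14*, a regulator of naive pluripotency, fell from 3.57 to 0.0334 FPKM, and the signalling genes *Lefty1* and *Tdgf1* fell from 47.1 to 1.14 FPKM and from 123 to 2.94 FPKM. *Sox2*, which neural progenitors also use, fell less, from 11.9 to 3.70 FPKM. The 5 genes within 2-fold were *Lin28a*, *Sall4*, *Tbx3*, *Stat3* and *Klf5*. Of these, *Tbx3* was at 19.7 FPKM at day 0 and 14.5 FPKM at day 5 in Suz12delta cells, against 27.0 and 0.0815 FPKM in E14 cells. *Klf5* was at 5.03 and 7.49 FPKM, against 23.0 and 0.154 FPKM in E14 cells. All 30 fell in E14 cells (median -7.59) and 27 fell in Eednull cells (median -5.88).

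**Figure D2:**
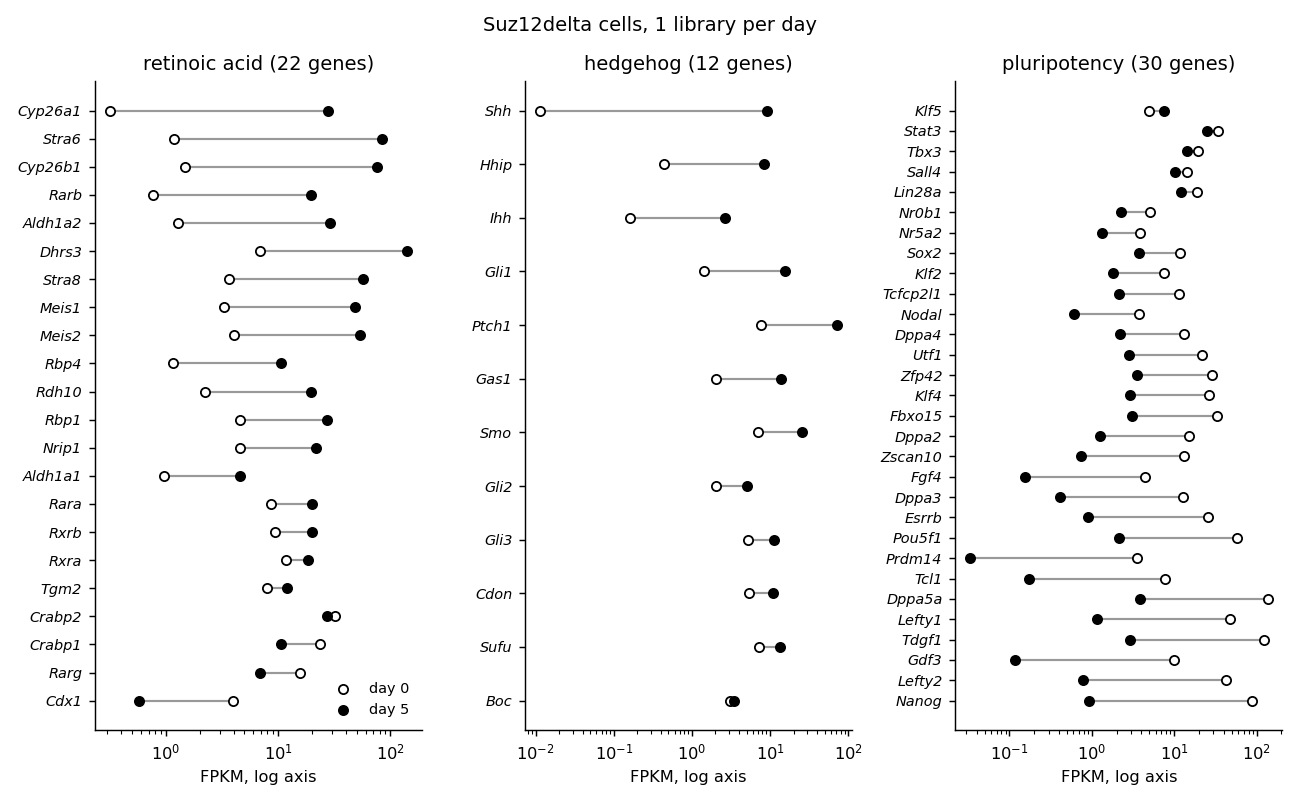
FPKM of retinoic acid, Hedgehog and pluripotency genes in Suz12delta cells at day 0 (open circles) and day 5 (filled circles) on log axes, 1 library per day. Of the genes drawn, 16 of 22, 10 of 12 and 0 of 30 rose at least 2-fold.

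Motor neuron and ventral spinal cord genes rose in part. Of 13 genes compared, 9 rose and 2 fell (median 3.04), against 25.5% and 9.08% of all genes. After centring, 8 rose and 3 fell. A further 10 genes on the list were at 0 at day 0 or under 1 FPKM on both days. The minimum admits a gene under 1 FPKM at day 0 only through its day 5 value, so such a gene is always higher at day 5. Over the 23 list genes of the table, the median level was 0.204 FPKM at day 0 and 1.15 FPKM at day 5. The motor neuron genes *Isl1* and *Mnx1* rose from 0.332 to 5.32 FPKM and from 0.108 to 2.63 FPKM. *Lhx3*, which works with *Isl1* in the motor neuron code, rose from 0.0661 to 2.52 FPKM, and the ventral progenitor gene *Nkx6-1* rose from 0.143 to 1.90 FPKM. Their day 5 levels in E14 cells were 18.1 FPKM for *Isl1*, 16.7 FPKM for *Mnx1*, 25.8 FPKM for *Lhx3* and 13.9 FPKM for *Nkx6-1*. *Olig2*, the gene of the motor neuron progenitor factor, on chromosome 16 from 91225795 to 91228922, went the other way. It fell from 1.12 to 0.107 FPKM in Suz12delta cells and from 5.19 to 0.0455 FPKM in Eednull cells, and rose from 0.0436 to 22.1 FPKM in E14 cells. Its neighbour *Olig1* fell from 1.19 to 0.188 FPKM. *Chat*, needed to make the motor neuron transmitter acetylcholine, was at 0.0363 and 0.0127 FPKM, against 7.61 FPKM in E14 cells at day 5. All 13 compared genes rose in E14 cells (median 5.83).

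General neuronal genes did not follow. Of 13 pan-neuronal genes compared, 1 rose and 3 fell, with a median log2 ratio of 0.07, against 12 that rose in E14 cells (median 3.60) and 0 in Eednull cells. *Crmp1*, a cytoskeletal gene of growing axons, was the gene that rose, from 3.56 to 12.6 FPKM. *Stmn2*, a microtubule regulator of neurons, fell from 39.9 to 4.92 FPKM, and *Mapt*, which encodes tau, fell from 5.06 to 0.869 FPKM. *Gap43*, a growth cone gene, was at 4.62 and 4.88 FPKM, against 88.6 FPKM in E14 cells at day 5. *Elavl4*, a neuronal RNA-binding protein gene, was under 1 FPKM on both days (0.434 and 0.700 FPKM) and at 102 FPKM in E14 cells at day 5. *Tubb3* is listed at 0 in both libraries and in both days of the other lines, so it carries no information here. Of 14 neural progenitor genes, 7 rose and 1 fell (median 1.14), and 6 rose and 2 fell after centring. *Pax6*, counted in the motor neuron list, rose from 0.615 to 7.24 FPKM, *Sox11* from 0.829 to 10.4 FPKM and *Zic1*, a dorsal neural gene, from 0.508 to 6.67 FPKM. *Nes*, the progenitor intermediate filament gene, was at 8.41 and 14.7 FPKM. In the axon guidance list 11 of 31 genes rose (35.5%) and 1 fell (3.23%), against 25.5% and 9.08% of all genes. After centring, 7 rose and 3 fell. Of these 31 genes, 16 rose in E14 and 22 in Eednull cells. *Epha7*, an ephrin receptor gene, rose from 1.43 to 10.4 FPKM.

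**Figure D3:**
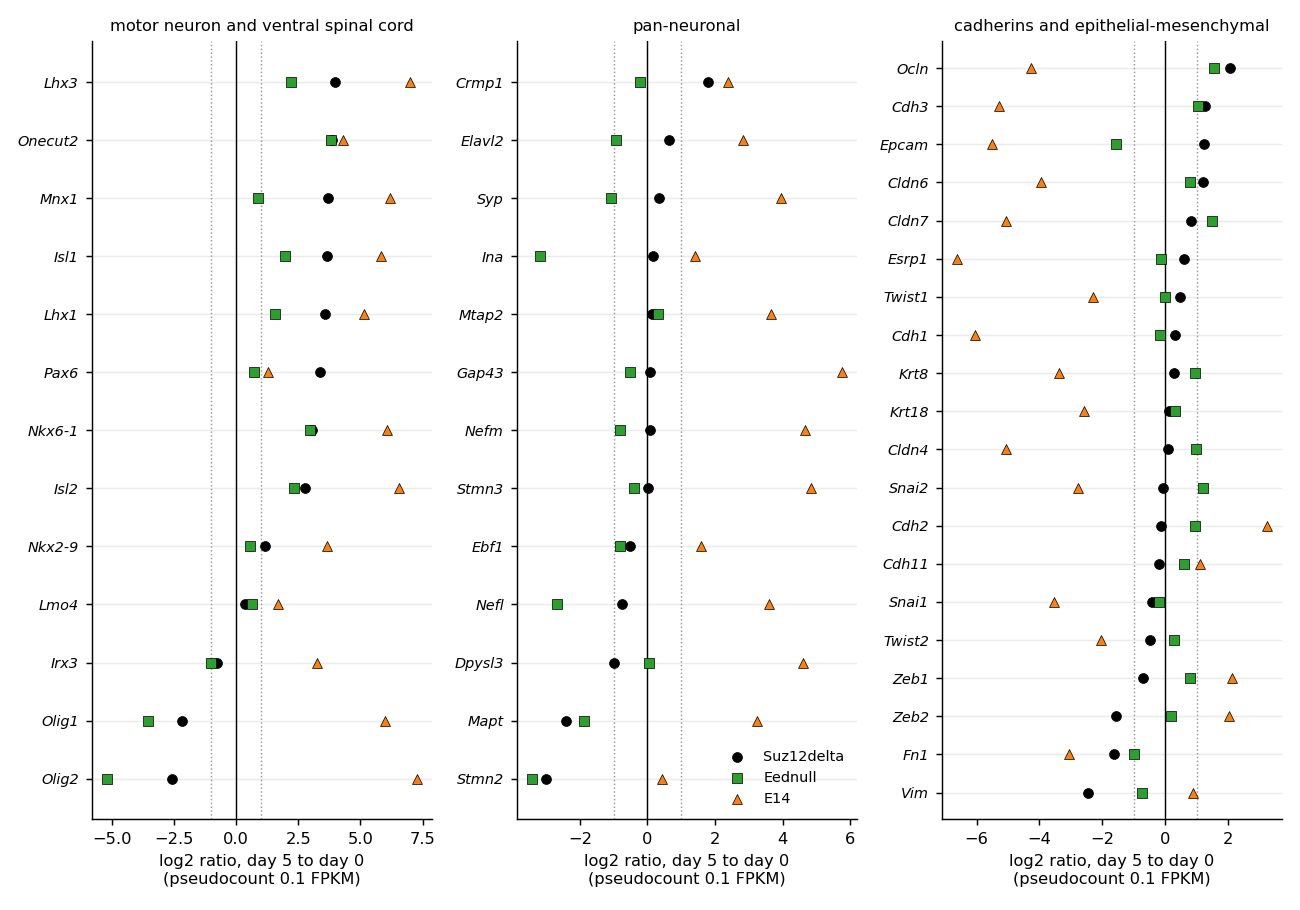
Log2 ratio of day 5 to day 0 (pseudocount 0.1 FPKM) for 3 gene lists in Suz12delta (circles), Eednull (squares) and E14 cells (triangles), 1 library per condition, with dotted lines at 2-fold. E14 triangles lie to the right for motor neuron and pan-neuronal genes and to the left for most epithelial genes, where Suz12delta circles lie near 0.

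Most Hox genes rose, in all clusters. These genes encode the transcription factors that set position along the head-to-tail axis, with low paralogue numbers anterior. Of the 37 Hox genes compared, 33 rose and 0 fell (median 3.01), against 25.5% and 9.08% of all genes. After centring, 30 rose and 1 fell. A gene under 1 FPKM at day 0 was compared only if it reached 1 FPKM at day 5. *Hoxd12* and *Hoxc12* were under the minimum on both days and were not counted. *Hoxd12* went from 0.936 to 0.146 FPKM and *Hoxc12* from 0.296 to 0.462 FPKM. The largest log2 ratios were those of *Hoxd4* (5.61, from 0.0619 to 7.82 FPKM) and *Hoxa4* (5.51, from 0.0728 to 7.79 FPKM). Genes of paralogue groups 1 to 6 ended below E14 cells, except *Hoxb1*, *Hoxd1* and *Hoxc6*. *Hoxb5* rose from 0.291 to 6.41 FPKM against 51.8 FPKM in E14 cells at day 5, and *Hoxd3* from 0.273 to 8.99 FPKM against 75.3 FPKM. Genes of groups 9 to 13 ended above E14 cells. *Hoxc9* rose from 0.715 to 6.59 FPKM and *Hoxa10* from 3.29 to 10.5 FPKM, whereas in E14 cells at day 5 *Hoxc9* was at 0.0279 FPKM and *Hoxa10* is listed at 0. *Hoxb13*, the most posterior gene of its cluster, rose from 0.521 to 5.95 FPKM, and it rose in Eednull cells from 1.03 to 6.84 FPKM. The 4 compared genes within 2-fold were *Hoxd11*, *Hoxd10*, *Hoxa11* and *Hoxc10*. Several Hox genes were already above 1 FPKM in Suz12delta ESCs, among them *Hoxa10* (3.29 FPKM), *Hoxd13* (2.71 FPKM) and *Hoxa9* (2.33 FPKM), all of which were under 1 FPKM in E14 ESCs.

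**Figure D4:**
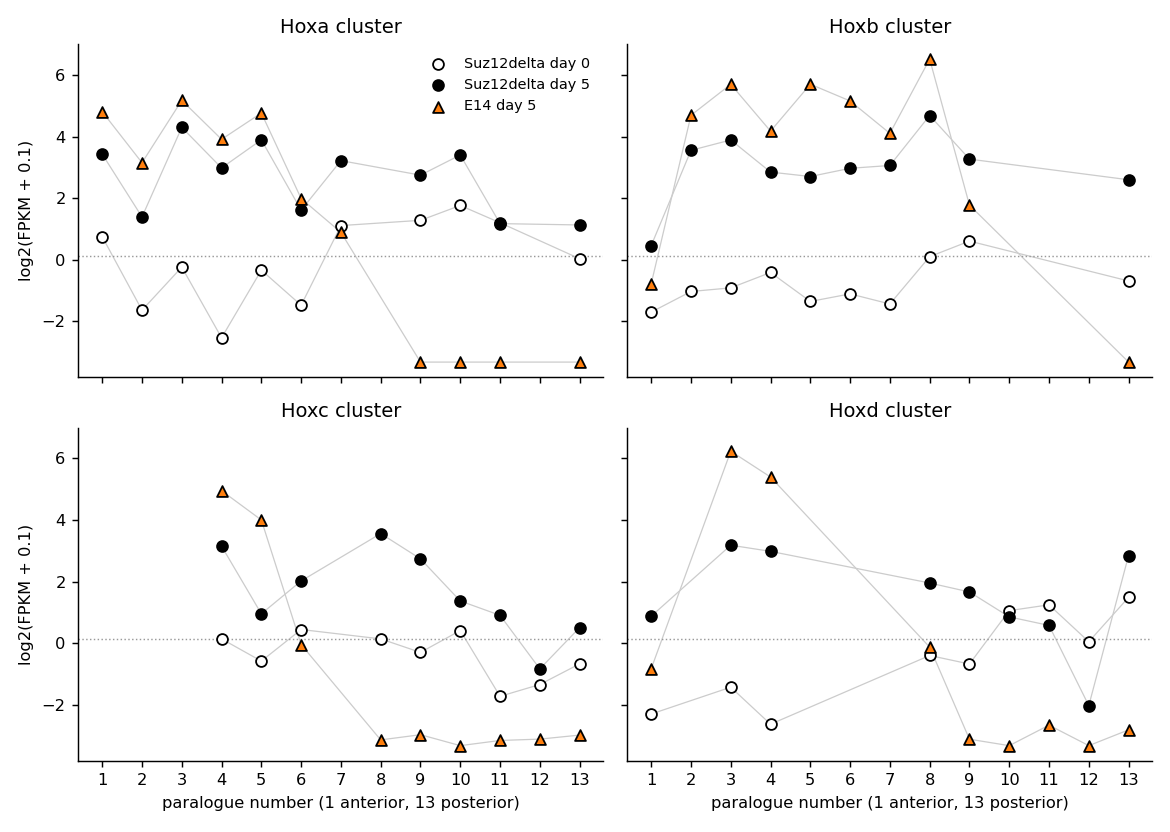
Log2 of FPKM plus 0.1 for Hox genes by paralogue number in the 4 clusters, in Suz12delta cells at day 0 (open circles) and day 5 (filled circles) and in E14 cells at day 5 (triangles), with a dotted line at 1 FPKM and 1 library per condition. Filled circles lie above the line from anterior to posterior paralogues, except at *Hoxc12* and *Hoxd12*, whereas triangles drop to the bottom at the posterior end, where values are at or near 0.

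Genes of other germ layers rose in part. Among endoderm genes, 10 of 22 rose and 3 fell (median 0.85), against 25.5% and 9.08% of all genes. After centring, 9 rose and 5 fell. In E14 cells 6 of the 22 rose and 9 fell. Over the 29 list genes of the table, levels summed to 585 FPKM at day 0 and 432 FPKM at day 5 in Suz12delta cells. Their median was 0.734 FPKM at day 0 and 5.34 FPKM at day 5. The pioneer factor genes *Foxa2* and *Foxa1*, of which *Foxa2* also marks the floor plate, rose from 0.433 to 12.0 FPKM and from 0.212 to 7.42 FPKM. *Gata4* and *Gata6*, which specify primitive endoderm, rose from 2.94 to 10.3 FPKM and from 1.02 to 5.82 FPKM. *Ttr*, a transport protein gene of visceral endoderm and liver, rose from 0.0350 to 4.24 FPKM. *Afp* and *Apoa1*, 2 more visceral endoderm products, are listed at 0 at day 0 and were at 7.15 and 7.68 FPKM at day 5. Basement membrane and early endoderm genes did not all follow, since *Sparc* fell from 348 to 173 FPKM (a log2 ratio of -1.01) and *Dab2* fell from 28.6 to 9.43 FPKM. Summed over 4 endoderm markers, the level was 4.61 FPKM at day 0 and 25.2 FPKM at day 5, against 0.928 and 0.692 FPKM in E14 cells. In Eednull cells this sum was 19.6 FPKM at day 0 and 20.0 FPKM at day 5, and 4 of the 22 endoderm genes rose and 7 fell (median -0.03). The list as a whole thus did not rise in the other PRC2 mutant line. Single genes did, with *Foxa2* from 2.61 to 13.5 FPKM and *Foxa1* from 1.34 to 8.17 FPKM, while *Gata4* and *Gata6* were within 2-fold there. In E14 cells *Foxa2*, *Foxa1* and *Gata6* rose too, to day 5 levels of 2.96, 0.711 and 0.653 FPKM.

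Among the mesoderm genes compared, more rose than fell. The list held 27 genes of the table, and 15 of them could be compared. The minimum admits a gene that is low at day 0 only through its day 5 value. Of these 15, 9 rose and 2 fell (median 1.55), against 2 that rose and 7 that fell in E14 cells. The rises included those of the heart gene *Gata5* from 0.0264 to 5.85 FPKM, the somite gene *Meox1* from 0.125 to 7.86 FPKM and *Kdr*, a receptor gene of vascular progenitors, from 0.494 to 8.45 FPKM. The primitive streak gene *T* fell from 2.36 to 0.944 FPKM and *Hand1*, a gene of lateral mesoderm, heart and trophoblast, from 17.9 to 1.79 FPKM. With a pseudocount of 1, the share of the 15 compared genes that rose was 33.3%. Of 11 blood and endothelial genes, 8 rose and 3 fell, and with a minimum of 5 FPKM the 2 genes left both fell. Embryonic globin genes rose, *Hba-x* from 0.0610 to 4.59 FPKM and *Hbb-y* from 0.0976 to 3.31 FPKM, while *Pecam1*, which ESCs also express, fell from 3.72 to 0.793 FPKM. Of 16 trophoblast genes, 7 rose and 3 fell, against 25.5% and 9.08% of all genes, and 7 rose and 4 fell after centring. The median was 0.24, below the 0.46 of all genes. *Gata3* rose from 4.22 to 17.8 FPKM, *Cdx2* from 1.80 to 6.77 FPKM and *Elf5* from 0.325 to 3.21 FPKM. In E14 cells 0 of these 16 rose and 12 fell.

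Most genes of the cadherin and epithelial-mesenchymal list were within 2-fold in Suz12delta cells, while most fell in E14 cells. In Suz12delta cells 4 of 20 rose (20%) and 3 fell (15%), against 25.5% and 9.08% of all genes. The median was 0.09, below the 0.46 of all genes, whereas 15 of the 20 fell in E14 cells (median -3.23). After centring, 1 of the 20 rose and 4 fell, so the balance of the list turned. *Cdh1*, which encodes E-cadherin, was at 27.7 and 34.6 FPKM in Suz12delta cells, at 40.0 and 35.7 FPKM in Eednull cells and at 46.8 and 0.608 FPKM in E14 cells. The tight junction gene *Ocln* rose from 2.80 to 11.8 FPKM, and the adhesion gene *Epcam* rose from 6.24 to 14.9 FPKM where E14 cells fell from 24.1 to 0.436 FPKM. The 3 genes that fell are mesenchymal or matrix genes: *Vim*, the vimentin gene, from 1067 to 194 FPKM, *Fn1*, the fibronectin gene, from 146 to 47.2 FPKM, and *Zeb2* from 7.85 to 2.61 FPKM. These fell together with the fibroblast markers, and the part of fibroblast RNA was not tested.

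Other signalling lists were read beside the shares of all genes, 25.5% higher and 9.08% lower. In the Wnt list 16 of 28 genes rose and 2 fell (median 1.35), 12 and 3 after centring, against 5 that rose and 14 that fell in E14 cells. The secreted enhancer gene *Rspo1* rose from 0.848 to 7.91 FPKM, the ligand genes *Wnt5b* and *Wnt4* from 1.39 to 7.34 FPKM and from 1.16 to 5.28 FPKM, and the receptor gene *Fzd3* from 2.58 to 13.4 FPKM. *Axin2*, a feedback target of the pathway, was at 6.01 and 7.86 FPKM. In the FGF list 5 of 16 rose and 6 fell (median -0.66), and 5 rose and 9 fell after centring. The receptor genes rose, *Fgfr2* from 7.70 to 54.5 FPKM and *Fgfr3* from 0.667 to 6.35 FPKM, except *Fgfr1* at 61.1 and 37.5 FPKM. The ligand genes *Fgf4* and *Fgf2* fell from 4.39 to 0.156 FPKM and from 5.95 to 0.455 FPKM, and the feedback inhibitor gene *Spry4* from 7.09 to 1.57 FPKM. In the BMP list 7 of 20 rose and 1 fell (median 0.36, below the 0.46 of all genes), and 4 rose and 2 fell after centring, with the ligand gene *Bmp7* from 0.969 to 14.9 FPKM and the antagonist gene *Grem1* from 17.4 to 1.60 FPKM. Of 14 Notch genes, 2 rose and 2 fell, 14.3% each way, and 2 rose and 4 fell after centring, so rises were no more frequent than among all genes. *Jag1*, a ligand gene, fell from 8.13 to 1.73 FPKM.

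Polycomb genes and the DNA methylation machinery were measured in the same libraries and are read beside the shares of all genes, 25.5% higher and 9.08% lower. Of 11 PRC2 genes, 2 rose (*Rbbp7* from 60.2 to 154 FPKM and *Ezh2*, the methyltransferase gene, from 37 to 74.3 FPKM) and 0 fell, but 0 rose after centring. In E14 cells 7 of the 11 fell. *Eed* was at 18.8 and 15.9 FPKM. Of 20 genes of PRC1, the complex that ubiquitylates histone H2A, 8 rose (40%) and 1 fell (median 0.64), and 6 rose and 3 fell after centring. *Cbx2*, a chromodomain subunit gene, rose from 2.73 to 17.1 FPKM and *Bmi1* from 7.35 to 34.2 FPKM, and *Pcgf5* fell from 13.4 to 6.04 FPKM. Of 11 DNA methylation genes, 4 rose (36.4%) and 2 fell (18.2%), and 3 rose and 2 fell after centring. The de novo methyltransferase gene *Dnmt3a* rose from 7.58 to 27.1 FPKM and the demethylase gene *Tet3* from 2.26 to 12.1 FPKM, while *Dnmt3b* fell from 28.4 to 7.74 FPKM and *Tet1* from 10.4 to 3.80 FPKM. *Dnmt3l*, a cofactor of germ cell and ESC methylation, was at 128 FPKM at day 0 and is listed at 0 at day 5. Of 20 genes that the study names as PRC2 targets or H3K27me3-marked, 11 rose and 4 fell, and 9 rose and 4 fell after centring. The study chose these on its own data, so the list is not independent evidence of a direction.

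Imprinted genes, expressed from one parental allele and tied to growth, held some of the largest gains. Of 23 compared, 11 rose and 3 fell (median 0.83), against 25.5% and 9.08% of all genes, and 8 rose and 4 fell after centring. *Dlk1*, a paternally expressed growth regulator gene, rose from 11.2 to 584 FPKM. *Mest*, *Peg3* and *Nnat*, which are also expressed from the paternal allele, rose from 40.1 to 412 FPKM, from 20.2 to 278 FPKM and from 10.7 to 138 FPKM. *Plagl1* rose from 12.2 to 66.7 FPKM. *Meg3*, the maternally expressed neighbour of *Dlk1*, fell from 97.5 to 33.5 FPKM, and *Grb10* from 32.2 to 10.6 FPKM. *H19* and *Igf2*, which share an imprinted region, were at 447 and 796 FPKM and at 166 and 246 FPKM, both within 2-fold. In E14 cells 9 of the 23 rose and 4 fell.

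Metabolic and growth lists changed less evenly, and are read beside the shares of all genes, 25.5% higher and 9.08% lower. In the hypoxia and glycolysis list 17 of 26 genes fell and 0 rose (median -1.29), and 20 of the 26 fell in Eednull cells against 7 in E14 cells. The glucose transporter gene *Slc2a1* fell from 104 to 27.6 FPKM, *Ldha*, the lactate dehydrogenase gene, from 338 to 69.5 FPKM, and *Pkm2*, the pyruvate kinase gene, from 594 to 220 FPKM. *Gapdh* was at 38.3 and 38.1 FPKM. Of 19 cholesterol synthesis genes 4 rose and 0 fell, but 1 rose after centring, and 13 rose in E14 cells. The gene that still rose was the sterol reductase gene *Tm7sf2*, from 7.10 to 21.9 FPKM. Of 25 mitosis and replication genes 7 rose and 0 fell, but 1 rose after centring. That gene was *Ccne2*, a cyclin gene of S phase entry, from 3.42 to 12.4 FPKM, and *Mki67*, the proliferation marker gene, was at 13.6 and 25 FPKM. Of 15 p53 target genes 0 rose and 3 fell, with *Mdm2*, which encodes the p53 ubiquitin ligase, from 137 to 50.4 FPKM. Of 13 cell cycle inhibitor and D cyclin genes 4 rose (30.8%) and 1 fell (7.69%), near the shares of all genes, and 2 rose and 1 fell after centring. The retinoblastoma gene *Rb1* rose from 3.26 to 15.4 FPKM and *Ccnd1*, the cyclin D1 gene, fell from 92.2 to 38.8 FPKM.

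Germline genes differed from E14 cells. Of 14 compared, 2 rose and 2 fell (median -0.19), against 25.5% and 9.08% of all genes, and 1 rose and 5 fell after centring. Of the same 14, 12 fell in E14 cells (median -4.85) and 10 fell in Eednull cells (median -2.11). *Dazl*, an RNA-binding protein gene of germ cells, rose from 1.91 to 5.72 FPKM, and *Ddx4*, the Vasa helicase gene, was at 3.98 and 3.40 FPKM.

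Fibroblast and Y-linked genes fell. Of 20 fibroblast genes 11 fell and 0 rose (median -1.49), and 16 fell after centring. *S100a4*, a calcium-binding protein gene of fibroblasts and macrophages, fell from 281 to 1.75 FPKM, and *Col6a1*, a matrix collagen gene, from 35.2 to 1.95 FPKM. *Cdh11* and *Twist1* were at 17.8 and 15.6 FPKM and at 2.90 and 4.05 FPKM. Of the 3 Y-linked genes compared all 3 fell, *Eif2s3y* from 12.3 to 0.714 FPKM, *Ddx3y* from 4.42 to 0.407 FPKM and *Uty* from 1.45 to 0.140 FPKM. In E14 and Eednull cells 0 of these 3 passed 2-fold, and *Eif2s3y* was at 28.4 FPKM in E14 and 25.4 FPKM in Eednull cells at day 5. Y-linked and fibroblast levels fell together in Suz12delta cells, and what part RNA of other cells had in either was not tested.

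**Figure D5:**
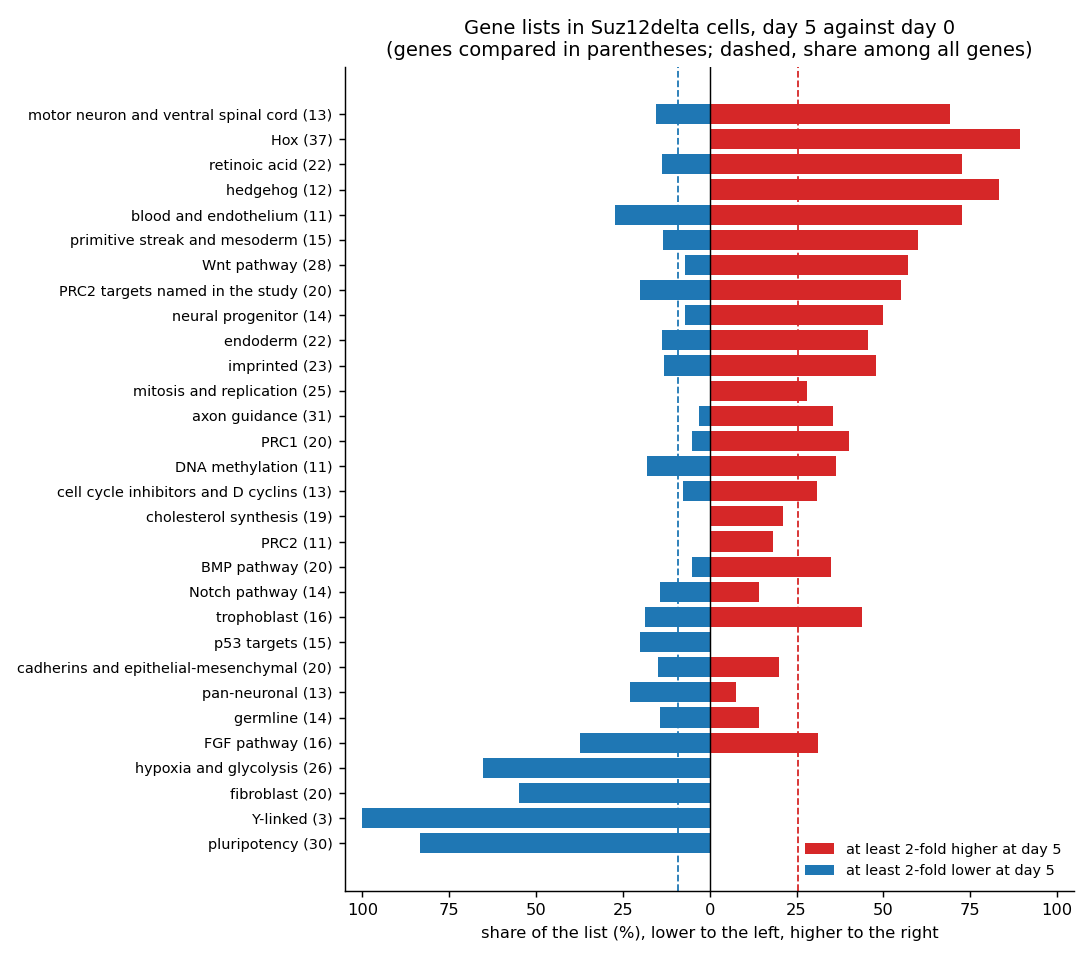
Share of each gene list that was at least 2-fold higher (red, to the right) or lower (blue, to the left) at day 5 in Suz12delta cells, with the number of genes compared in parentheses and 1 library per day. Dashed lines mark the shares among all genes, 25.5% higher and 9.08% lower. Hox and Hedgehog genes have the highest shares to the right, and Y-linked, pluripotency and glycolysis genes the highest to the left.

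The largest log2 rises among genes at 10 FPKM or more were led by *Cxcl15*, a chemokine gene of mucosal epithelia, from 0.0995 to 25.9 FPKM (7.03). *Frem1*, a basement membrane protein gene, followed, from 0.0721 to 14.3 FPKM (6.39). *Mir675* rose from 0.218 to 21.6 FPKM. It lies within *H19*, which was itself within 2-fold, and the part of host reads in the *Mir675* values was not tested. Then came *Cyp26a1* (6.07), *Stra6* (6.05), *Hapln1*, a matrix link protein gene (5.85, from 0.103 to 11.6 FPKM), and *Gfra3*, a receptor gene for artemin (5.74, from 0.193 to 15.5 FPKM). *Dlk1* (5.69), *Cyp26b1* (5.60), *Neurl3* (5.52), *Sst*, the somatostatin gene (5.26), *Hsd11b2* (5.22), *Adh1*, an alcohol dehydrogenase gene that can oxidise retinol (5.09), *Wt1* (4.98) and *0610040B09Rik* (4.94) made up the 15. *Wt1*, a regulator of kidney and gonad, rose from 0.816 to 28.8 FPKM against 0.327 FPKM in E14 cells at day 5. All 15 rose in Eednull cells and 10 of them rose in E14 cells, so for these genes the other PRC2 mutant line moved the same way.

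The largest falls were led by genes of stromal and immune cells. *Wisp2*, a secreted regulator of mesenchymal cells, fell from 20.2 to 0.0193 FPKM (-7.41). *Lyz2*, the macrophage lysozyme gene, fell from 21.7 to 0.0359 FPKM (-7.33), and *Ccl6*, a macrophage chemokine gene, from 18.7 to 0.0454 FPKM (-7.02). *Fgf7* (-6.50), *Cav1* (-6.49, from 149 to 1.56 FPKM), *Ereg* (-6.06), *Col6a3* (-5.90), *Ccl2* (-5.86) and *Il1rl1* (-6.22), all expressed by fibroblasts or stromal cells, were among the 15. *S100a4* (-7.25), *Nanog* (-6.40), the interferon-induced gene *Ifi44* (-6.25), the immediate early gene *Fosb* (-6.09), *Gm6798* (-6.01) and *Tmem45a* (-5.76) completed it, and *Gm6798* is a pseudogene whose reads may be shared with a near-identical gene. In E14 cells all 15 fell and in Eednull cells 14 did, the exception being *Lyz2*, at 0.229 and 0.104 FPKM there. Beyond the genes compared, 153 were listed at 0 at day 0 and 166 at day 5 while reaching 1 FPKM on the other day, and these have no ratio. Housekeeping genes are among them, such as *Rps24*, listed at 0 at day 0 and at 222 FPKM at day 5, and *Arpc4*, at 143 FPKM and then listed at 0, so a listed 0 need not mean absence.

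By FPKM, the largest gains were those of features present in many copies or encoded by the mitochondrion, such as *mmu-mir-2133-2* (2418 to 9303 FPKM) and *mt-Co3* (2636 to 5224 FPKM, a log2 ratio of 0.99). Reads of such copies cannot be assigned with certainty, and *mmu-mir-2133-2* was at 37980 and 13791 FPKM in E14 cells. The largest losses of single-copy genes were those of *Vim* and of *Spp1*, the osteopontin gene, which fell from 948 to 78.3 FPKM.

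The changes were then set beside those of the other lines over the 15361 of these genes that were above 0 in all 6 libraries. In this set 3877 genes rose in Suz12delta cells (25.2%) and 1201 fell (7.82%). In E14 cells 2151 of the same genes rose (14%) and 3063 fell (19.9%), and in Eednull cells 2650 rose (17.3%) and 1827 fell (11.9%). The genes were chosen by their Suz12delta levels, which favours changes in that line, and the median log2 ratios were 0.47 in Suz12delta, -0.16 in E14 and 0.11 in Eednull cells. Of the 3877 genes that rose in Suz12delta cells, 30.1% rose in E14 and 42.8% in Eednull cells, while 54.2% of the E14 rises and 62.6% of the Eednull rises were shared. Of the 1201 falls, 61.9% were shared with E14 and 58.6% with Eednull cells, which made up 24.3% and 38.5% of the falls of those lines. Of the 884 genes that rose at least 4-fold, 53.4% rose in E14 and 77.8% in Eednull cells. Of the 467 that fell at least 4-fold, 74.9% fell in E14 and 75.8% in Eednull cells. Across the 15361 genes, Pearson's r of the log2 ratios was 0.475 with E14 and 0.634 with Eednull cells, given as a description across genes, which are not independent replicates.

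In all 3 lines 864 genes rose, 22.3% of the Suz12delta rises, and 531 fell, 44.2% of its falls. Among these rises, the largest in Suz12delta cells were those of *Shh*, *Cyp26a1*, *Gfra3*, *Dlk1*, *Cyp26b1*, *Hoxa4*, *Cxxc4* (0.122 to 8.46 FPKM), *Hsd11b2*, *A730017C20Rik* and *Tmem132e*. A further 1915 genes (49.4%) rose in Suz12delta cells and in neither other line, and 284 (23.6%) fell there and in neither other line. After centring all 3 lines on their medians, the share of Suz12delta rises that also rose in E14 cells was 47.6% in place of 30.1%. Opposite changes were fewer, with 404 genes (10.4%) that rose in Suz12delta and fell in E14 cells, and 76 (6.33%) that fell in Suz12delta and rose in E14 cells. *Upk1a*, a urothelial membrane protein gene, rose from 0.923 to 24.2 FPKM in Suz12delta cells and from 1.29 to 29.6 FPKM in Eednull cells, and fell from 1.72 to 0.758 FPKM in E14 cells. *Cldn5*, an endothelial tight junction gene, rose from 0.238 to 6.15 FPKM, and *Enpp2*, which encodes autotaxin, from 0.946 to 14 FPKM. In the other direction *Rgs16*, a regulator of G protein signalling, fell from 11.6 to 0.666 FPKM while it rose from 2.71 to 11.4 FPKM in E14 cells. *Mtap6*, a microtubule-stabilising gene of neurons, fell from 15.0 to 2.49 FPKM while it rose from 2.68 to 15.4 FPKM in E14 cells. None of these opposite changes has a test, with 1 library per condition.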

How the data were processed

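RNA-seq of 8 libraries was used, each the only one of its condition: E14, Suz12delta and Eednull ESCs and day 5 cells, Suz12GT day 5 cells and CJ7 ESCs, of which the last 2 enter no comparison. Sequencing was run on GA-2 or Hi-Seq instruments, and the labels do not say which library ran on which. The CJ7 label states that it was prepared and sequenced with another library, which by its column name is Eednull day 0, and whether the Eednull day 5 library shared that batch is not given in the sources used here. The values deposited are FPKM for each gene. Per the submitters' processing notes and the study's methods, the authors aligned reads to NCBI build 37 by TopHat 1.3.2, which ran Bowtie 0.12.7, and Cufflinks 1.2.1 with Cuffdiff then estimated FPKM on Ensembl-derived gene models, correcting for sequence bias and multi-mapping reads. FPKM divides by transcript length, so levels can be compared between genes. Bias and multi-read correction make low values and repeated features depend on the model, and no read counts were used, so depth is unknown and no counting interval is given. A search for steps of single reads over 2341 low genes found at most 1.45% sharing one ratio, which did not give the relative depths. The strand protocol is not given in the sources used here, so antisense partners cannot be told apart.

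From these values, log2 ratios with a pseudocount of 0.1 FPKM were computed over genes that reached 1 FPKM in at least one of both libraries and were above 0 in each. Calls were 2-fold and 4-fold, with no test, since there was 1 library per condition. The calculation was tested on simulated data. Of the table, 16420 genes reached 1 FPKM in either Suz12delta library, 319 of them were listed at 0 in one, and 5943 were above 0 in both but under the minimum. Gene positions, types and transcript starts came from GENCODE vM1, which held 36104 of the 36808 identifiers, and sequence came from the NCBI build 37 genome.

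The members of the comparison, the 30 gene lists (610 genes, of which 5 symbols were not in the table) and the rule for named genes were chosen with earlier results of these data known. The rule named the 15 largest log2 rises and falls among genes at 10 FPKM or more, the 10 largest FPKM rises and falls, list members, and the 10 largest changes each way that were opposite in E14 cells or shared by all 3 lines. *Ascl2*, *Neurog1* and other list members under the minimum were not counted. Some genes were left out of the lists and are not reported here. Alternatives were pseudocounts of 1 and none, a minimum of 5 FPKM and none, genes listed at 0 included, matching the 75th percentiles (17842 genes above 0 in every library), centring, and protein-coding genes only. Python 3.11.15, NumPy 2.4.6, pandas 2.3.3, SciPy 1.17.1 and Matplotlib 3.10.9 were used.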

Additional observations from a re-analysis of the deposited data

Results flagged for a closer look

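Over the genes above 0 in all 6 libraries, 404 rose in Suz12delta and fell in E14 cells and 76 did the reverse, with at least 2-fold in both lines. The genes given here are a selection of these patterns, namely members of the gene lists and the 10 largest opposite changes each way, 52 genes in all. Genes listed at 0 in an E14 library were left out of it, and how many of the selection rose or fell carries no weight. The difference was not tested, since each condition had 1 library. Values are log2 ratios of day 5 to day 0 in Suz12delta cells.

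Germ layer genes that rose in Suz12delta and fell in E14 cells were the endoderm genes *Hhex* (2.28) and *Apob* (2.46), the mesoderm gene *Foxc1* (1.59), the blood and endothelial genes *Etv2* (2.07) and *Tie1* (1.48), and the trophoblast genes *Cdx2* (1.85), *Gata3* (2.05) and *Krt19* (1.52). Signalling genes with this pattern were *Wnt6* (1.60), *Wnt11* (1.33), *Rspo1* (3.08) and *Sp5* (1.82) of the Wnt pathway, *Bambi* (1.19) and *Msx1* (1.79) of the BMP pathway, *Fgf5* (2.74) and *Spry1* (1.77) of the FGF pathway, *Gli2* (1.27) and *Stra8* (3.93). Epithelial genes with it were *Cdh3* (1.25), *Cldn6* (1.19), *Epcam* (1.25) and *Ocln* (2.04). The posterior Hox genes *Hoxc13* (1.18) and *Hoxd13* (1.36), the Polycomb genes *Rybp* (1.62) and *Rbbp7* (1.35) and the neural gene *Gbx2* (1.45) showed it too. From the ranking of opposite changes came *Upk1a* (4.57), *Cldn5* (4.21), *Kcnq3* (4.05), *Gm98* (3.95), *Enpp2* (3.75), *Lypd6b* (3.73), *B4galnt2* (3.55), *Gna14* (3.55) and *Cpt1b* (3.34).

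Genes that fell in Suz12delta and rose in E14 cells were the motor neuron progenitor genes *Olig2* (-2.56) and *Olig1* (-2.17), the neuronal genes *Mapt* (-2.41), *Dpysl3* (-1.0) and *Mtap6* (-2.54), and *Crabp1* (-1.14), *Zeb2* (-1.55), *Tpi1* (-1.61) and *Grb10* (-1.60). The others were *Cd59a* (-4.03), *Rgs16* (-3.93), *Il4ra* (-3.07), *Tmem74* (-2.59), *Gm17122* (-2.47), *Snord32a* (-2.45) and *Ankrd37* (-2.34).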

How the results depend on the processing

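With a pseudocount of 1, 330 genes rose and 315 fell at least 4-fold. The share that rose was 33.3% for mesoderm and 0% for Notch genes. The shares of Suz12delta changes shared with E14 cells were 26.3% of rises and 50.5% of falls, and with Eednull cells 38.7% and 49.9%. With a minimum of 5 FPKM, 2630 genes rose and 857 fell, 483 and 389 at least 4-fold. The share that fell was then 60.0% for pan-neuronal genes, and the share that rose was 100% for Hox, 0% for Notch and 0% for blood and endothelial genes, whose direction turned, with 26.8% of rises shared with E14 and 38.5% with Eednull cells. With no minimum, 58.5% of falls were shared with E14 and 41.1% of rises with Eednull cells. With protein-coding genes only, 68.2% of falls were shared with E14 cells.

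Scaling to the 75th percentile gave 2417 rises, 672 of them at least 4-fold, and centring gave 2104 rises, 592 of them at least 4-fold, and 2372 falls. Under both, 80.0% of fibroblast genes fell, and 0% of PRC2, 4% of mitosis, 5.26% of cholesterol and 5.00% of epithelial genes rose, the last with more falls than rises. Glycolysis genes fell in 80.8% of cases after centring. Rises shared with E14 cells were 43.2% when scaled and 47.6% when centred, and falls 51.8% and 48.1%. With Eednull cells they were 56.2% and 56.9% of rises, and 49.0% and 49.2% of falls. The cause of these differences was not tested.

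No pseudocount and the inclusion of genes listed at 0 kept the counts within 1.5 times and the list shares in place, and the latter was not run for shared changes. Of 583 named or listed genes, 43 moved beyond the limit used with a pseudocount of 1 and 74 with scaling, and 0 turned direction. No paired analysis was possible because each condition has 1 library and no test was made. Depth is unknown, so the precision of low values could not be given.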

Other observations

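Gene families outside the lists above were described after their values were seen. Of 331 zinc finger genes named Zfp, 186 rose and 10 fell, with a median log2 ratio of 1.08 beside 0.46 for all genes, against 88 rises and 40 falls in E14 cells. Of 66 histone genes 32 rose and 0 fell (median 0.99), while 22 fell in E14 cells and 48 in Eednull cells. Most histone transcripts lack a poly(A) tail, and how much of them a library holds depends on RNA selection, which was not tested here. Of 26 forkhead genes 17 rose and 2 fell (median 1.59), with *Foxd2* from 0.0935 to 4.07 FPKM, *Foxd1* from 0.256 to 3.96 FPKM and *Foxp4* from 8.21 to 65.5 FPKM, and with *Foxh1*, a Nodal pathway factor gene, from 7.87 to 0.474 FPKM. Ribosomal protein genes were nearly level, with 1 of 76 past 2-fold (median 0.02).

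Of 28 collagen genes, 10 rose and 10 fell. Examples picked by their size are the cartilage collagen genes *Col2a1* and *Col9a3*, which rose from 1.36 to 24.1 FPKM and from 0.632 to 8.71 FPKM, and the fibroblast collagen genes *Col6a2* and *Col5a2*, which fell from 18.9 to 1.62 FPKM and from 52.5 to 10.2 FPKM. Others of these kinds stayed within 2-fold, such as *Col9a2* (log2 ratio 0.78), *Col11a1* (0.69), *Col3a1* (-0.86) and *Col5a1* (-0.77). Of 22 interferon-induced genes 17 fell and 0 rose (median -2.79), with *Isg15* from 19 to 0.929 FPKM. Of 13 immediate early genes 10 fell and 0 rose (median -2.07), with *Fos* from 111 to 4.59 FPKM and *Egr1* from 53.3 to 12.6 FPKM. In E14 cells 12 of these 13 fell (median -3.18), and in Eednull cells 11 fell (median -2.49). Of 15 chemokine genes 7 fell and 1 rose, and of 16 matrix metalloproteinases and inhibitors 9 fell and 2 rose, with *Mmp3* from 28.3 to 1.08 FPKM and *Timp1* from 148 to 23.3 FPKM. These falls occurred beside that of the fibroblast markers, from 473 to 95.1 FPKM in sum, and the part of fibroblast RNA in them was not tested.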
